A study of Mus musculus with 11 samples.

Results

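Very long gene regions are the rows of the deposited lamin B1 map on chromosomes 1 to 19 whose end lies at least 400 kb beyond their start. They were chosen by width alone, from the coordinates of the table, and no score entered the choice. Of the 21534 gene regions in the table, 312 reach that width, 298 of them on chromosomes 1 to 19, 13 on X and 1 on Y. Where a symbol had several such rows the widest was taken, which applied to 1 symbol (abParts, the antibody gene parts), and 295 regions remained. They are 1.43% of the 20648 autosomal regions, together span 196 Mb and have a median width of 534 kb, from 400 kb to 3183 kb, with 37 of them over 1000 kb. A reference gene table (GRCm38.p6) matched 292 of the symbols, 288 of them protein-coding genes. In 248 the width lay within 20 kb of the annotated gene length plus 12 kb, because a row covers the gene with 10000 bp upstream and 2000 bp downstream. In 20 members the annotated length was over 1.2 times the width. Examples are Lsamp (width 625 kb, annotated 2197 kb) and Pcdh15 (825 kb and 1554 kb). The rows named Bc1, Mir5098 and Mir466p depart in the other direction, since those short RNAs are annotated at under 1 kb. These wide rows cannot be read as values of the named RNA.

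The map was made by DamID-seq, in which the bacterial DNA adenine methyltransferase Dam, fused to the lamina protein lamin B1 (Dam-LMNB1), marks DNA near the nuclear lamina, and untethered Dam marks DNA that any free enzyme can reach. The cells were oligodendrocyte precursor cells of C57BL/6 mice, wild type (WT) in every library, taken from cortex at postnatal day 7, which received a lentivirus for 1 of the enzymes and, 1 day later, 72 hours of culture. OPC here means proliferation medium, PF in the labels (3 Dam-LMNB1 libraries, numbered 8, 9 and 10, and 2 Dam libraries, 2 and 4). OL means differentiation medium, T3 in the labels (3 Dam-LMNB1 libraries, 18, 19 and 20, and 3 Dam libraries, 12, 13 and 14), whose source is labelled oligodendrocyte. The cell type label reads primary OPCs in both media, and no marker of differentiation is named. By the labels the medium alone differs between OPC and OL, every library carries a lentiviral Dam enzyme, and whether the libraries of a group are separate cultures or animals is not in the labels. The assay measures no expression, so the cell types could not be checked against markers.

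Lamina-associated domains are large stretches of mostly inactive, gene-poor chromatin that contact the lamina at the nuclear edge, while active gene-dense chromatin lies in the interior. Very long genes owe their length to introns, and in mammals many of them encode adhesion molecules, receptors, channels and synaptic proteins of neurons, or span common fragile sites, where chromosomes break under replication stress. A long gene can therefore be a large part of a domain by itself, and a score over such a row is an average over a whole stretch of chromatin.

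Because a row's score is an average, the starts of 4 of these genes are shown as the reference has them (RefSeq, GRCm38.p6, 250 bases before to 50 after the gene's start, 5′ to 3′ on the gene's strand). They are the genes of the highest score, the lowest score, the largest rise and the largest fall among the members with an entry. Capitals mark GATC, the site that Dam methylates, which reads the same on both strands.

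Klhl1, chr14:96518985-96519284, minus strand: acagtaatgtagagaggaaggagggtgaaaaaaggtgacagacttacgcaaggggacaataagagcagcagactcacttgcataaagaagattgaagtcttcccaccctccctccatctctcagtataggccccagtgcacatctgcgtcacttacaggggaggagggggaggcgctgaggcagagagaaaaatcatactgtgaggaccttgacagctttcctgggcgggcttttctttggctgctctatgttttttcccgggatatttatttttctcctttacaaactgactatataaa
Npas3, chr12:53248182-53248481, plus strand: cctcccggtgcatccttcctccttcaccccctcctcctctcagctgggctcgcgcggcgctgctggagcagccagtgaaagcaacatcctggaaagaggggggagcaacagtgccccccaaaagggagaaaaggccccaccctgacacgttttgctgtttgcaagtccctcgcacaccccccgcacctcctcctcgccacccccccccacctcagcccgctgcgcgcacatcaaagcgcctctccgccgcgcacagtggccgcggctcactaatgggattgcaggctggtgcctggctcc
Lhfpl3, chr5:22745804-22746103, plus strand: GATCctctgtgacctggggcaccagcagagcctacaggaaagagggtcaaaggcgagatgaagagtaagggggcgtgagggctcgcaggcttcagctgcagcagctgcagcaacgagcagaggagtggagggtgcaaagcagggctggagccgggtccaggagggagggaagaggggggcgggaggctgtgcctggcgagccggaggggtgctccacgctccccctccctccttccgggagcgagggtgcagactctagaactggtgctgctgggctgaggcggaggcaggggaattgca
Slc24a3, chr2:145242361-145242660, plus strand: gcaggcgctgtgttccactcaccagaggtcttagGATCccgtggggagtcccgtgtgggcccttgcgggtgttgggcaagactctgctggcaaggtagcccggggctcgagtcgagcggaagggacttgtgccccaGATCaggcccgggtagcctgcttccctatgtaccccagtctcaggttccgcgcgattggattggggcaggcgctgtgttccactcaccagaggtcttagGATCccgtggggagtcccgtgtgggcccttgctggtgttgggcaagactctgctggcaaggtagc

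The window of Klhl1 holds no GATC and 5 CG dinucleotides, and that of Npas3 holds no GATC and 18 CG. The window of Lhfpl3 holds 1 GATC and 12 CG, and that of Slc24a3 holds 3 GATC and 15 CG. An entry at the row's own start was present for 196 of the 295 members, with a tolerance of 500 bp. At least 1 GATC lay in 91 of these 196 windows (46.4%), in 45.6% of the 13827 windows of shorter autosomal regions and in 48.0% of all 32851 windows of the reference. The members' windows held a median of 20 CG dinucleotides against 16 for shorter regions. Members with a mean score above 0 had a median of 17 CG and those below 0 a median of 26, while shorter regions above 0 had a median of 3 and those below 0 a median of 19. Thus 71.7% of the members above 0 had at least 10 CG at their start, against 24.8% of the shorter regions above 0. The 2 sets were not matched for kind of gene. Among shorter regions, those under 20 kb are 14.2% olfactory receptor genes by symbol.

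A score sets a Dam-LMNB1 library against the pool of all Dam libraries in that medium. Its log base is not stated, so no fold can be given, and differences are in units of the score. Above 0, Dam-LMNB1 methylation is taken to exceed that of Dam, with 0 as the authors' processing placed it. Contact in more of the cells and more methylation per cell cannot be told apart in these bulk libraries. Sequencing depth is unknown. The scores of a condition have their Dam denominator in common, so variation between Dam libraries enters neither their spread nor any p-value. OL library 18 stood apart from OL libraries 19 and 20. Among the 113 members with a mean score below 0 its score was above the mean of the other 2 in 109, with a median gap of 0.13, whereas among the 182 members above 0 it was lower in 93 and higher in 89.

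The first question was where the very long regions lie relative to the lamina in OPC. Most had more lamin B1 signal than control, opposite to the table as a whole. Tested against 0 with limma and Benjamini-Hochberg adjustment over all 21534 regions at 0.05, 173 of the 295 (58.6%) lay above 0 and 107 (36.3%) below 0, with 15 called in neither direction. The same calls took in 25.5% and 71.4% of all regions. The median OPC score was 0.54 for the members, −1.54 over all regions and −1.62 for the 20350 autosomal regions under 400 kb. Over the 3 OPC libraries the share of members above 0 was 61.4% ± 0.339 (SD, n = 3), against 25.6% ± 0.258 for the shorter autosomal regions.

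In OL the position of the very long regions was much the same. Of the 295, 173 lay above 0 and 106 below 0 (limma, adjusted over all regions), against 25.9% and 70.9% of all regions. The median OL score was 0.56 for the members, −1.47 over all regions and −1.53 for shorter autosomal regions. The share of members above 0 was 61.1% ± 1.67 (SD, n = 3), which differs from the OPC share by less than the spread between OL libraries. In all 6 libraries 169 members stayed above 0 and 102 below 0. The members also spread over the whole range, since 26 exceeded 2 in all 6 libraries and 18 were under −2 in all 6. By mean score, 152 members (51.5%) were at or over 0.5, 79 (26.8%) from −1 to 0.5 and 64 (21.7%) under −1, against 22.0%, 17.3% and 60.6% of all regions.

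From the class of 20 to 50 kb upward, wider regions had higher median scores. In OPC the median was −1.53 for 7659 autosomal regions under 20 kb and lowest, at −1.84, for 7618 regions of 20 to 50 kb. It was −1.51 for 50 to 100 kb (3011 regions), −1.04 for 100 to 200 kb (1452) and −0.36 for 200 to 400 kb (610). From there the classes of very long regions followed, with 0.29 for 400 to 600 kb (186 regions), 0.76 for 600 to 1000 kb (73) and 1.41 from 1000 kb (39). These classes keep all 298 rows, so that the 4 rows of abParts over 400 kb each count. The share called above 0 in OPC (limma) was 15.5% in the class of 20 to 50 kb, 42.6% for 200 to 400 kb and 82.1% from 1000 kb. OL medians followed the same order from 20 kb up, from −1.69 to 1.61.

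**Figure D1:**
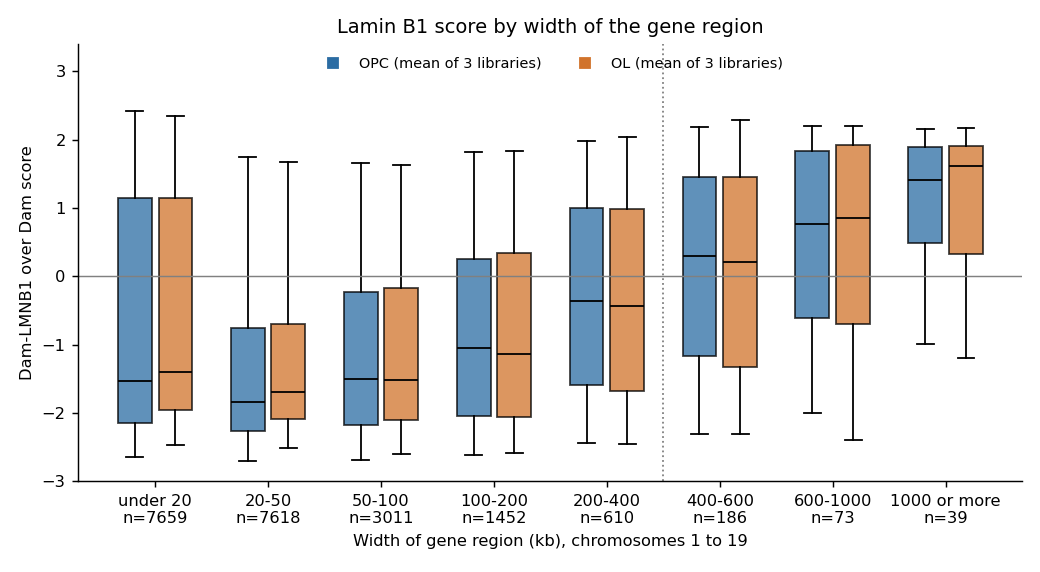
Dam-LMNB1 over Dam score (y axis, score units, mean of 3 libraries) of autosomal gene regions in 8 width classes (x axis, kb), with OPC in blue and OL in orange; boxes span the quartiles, the line is the median and whiskers run from the 5th to the 95th percentile. The medians go from −1.84 at 20 to 50 kb to 1.41 from 1000 kb in OPC, and the dotted line marks the 400 kb limit.

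Within the members the relation of score and width was weak. Spearman's rho across the 295 was between 0.190 and 0.206 in the 6 libraries. It was 0.205 to 0.236 across the 5371 autosomal regions from 50 kb, a limit chosen after the classes had been seen, and −0.033 to −0.077 across all autosomal regions, whose shortest class is 14.2% olfactory receptor genes by symbol. These values are across regions of the same libraries, many of them overlapping or adjacent, and are given as a description. The regions nearest to the limit of 400 kb had scores of several levels. Just inside it, chr1:53804873-54205034 (Hecw2, a ubiquitin ligase) scored 0.86, 0.85 and 0.89 in OPC and 0.97, 0.94 and 0.98 in OL. Scaper scored 0.58, 0.52 and 0.56 in OPC and 0.48, 0.55 and 0.48 in OL. Fmn1, an actin nucleator, scored 1.03, 1.09 and 1.05 in OPC and 0.69, 0.59 and 0.62 in OL. All 3 lay above 0, and OPC and OL overlapped in Scaper alone of them. Just outside, the cadherin gene Cdh8 scored 2.08, 2.08 and 2.07 in OPC and 2.09, 2.26 and 2.15 in OL. Ltbp1, a matrix protein that binds latent TGF-beta, scored 0.84, 0.83 and 0.85 in OPC and 0.86, 0.70 and 0.71 in OL. Mcc scored −0.35, −0.41 and −0.32 in OPC and −0.42, −0.52 and −0.44 in OL. Cdh8 outside the limit scored higher than all 3 regions inside it, and Mcc, also outside, was the only 1 of the 6 below 0.

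Scores of very long regions agreed more closely between libraries than those of shorter ones. The median SD of the 3 OPC scores was 0.13 for regions under 20 kb, 0.036 for 200 to 400 kb and 0.019 from 1000 kb. In OL it was 0.13, 0.073 and 0.055 in the same classes. The limma variance trend follows the score level and not width, so the median standard error of a difference went from 0.10 to 0.067 over the classes. The spread assigned to a very long region thus borrows from shorter regions of the same level.

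The widest members lay above 0, with Csmd1 in OL as the exception. The row of antibody gene parts on chr6 (chr6:67545635-70728966, 3183 kb) scored 2.11, 2.20 and 2.14 in OPC and 1.84, 2.07 and 2.04 in OL, in the order of the library numbers given above, which is used throughout. Ptprd (2283 kb), a receptor tyrosine phosphatase that organises synapses, scored 1.64, 1.67 and 1.66 in OPC and 1.55, 1.67 and 1.63 in OL. Cntnap2 (2253 kb), the neurexin-like protein Caspr2 of the myelinated axon, scored 1.81, 1.82 and 1.81 in OPC and 1.8, 1.92 and 1.87 in OL. All of these values lie well above 0, and OPC and OL overlapped in Ptprd and Cntnap2. Lrp1b (2069 kb), a large lipoprotein receptor relative, scored 1.68, 1.66 and 1.70 in OPC and 1.76, 1.86 and 1.78 in OL. Macrod2 (2007 kb), an enzyme that removes ADP-ribose, scored 1.94, 1.96 and 1.95 in OPC and 1.92, 2.01 and 1.96 in OL. OPC and OL overlapped in Macrod2 and not in Lrp1b. In these 5 regions the OL minus OPC difference did not pass the test (limma adjusted p from 0.148 for the antibody parts to 0.908 for Macrod2). Csmd1 (1655 kb), a membrane protein that restrains complement, scored 0.59, 0.55 and 0.54 in OPC and 0.06, −0.028 and −0.049 in OL. Its OPC libraries were all above its OL libraries, which lay around 0 (difference −0.57, limma SE 0.066, adjusted p = 6.40e-04).

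**Figure D2:**
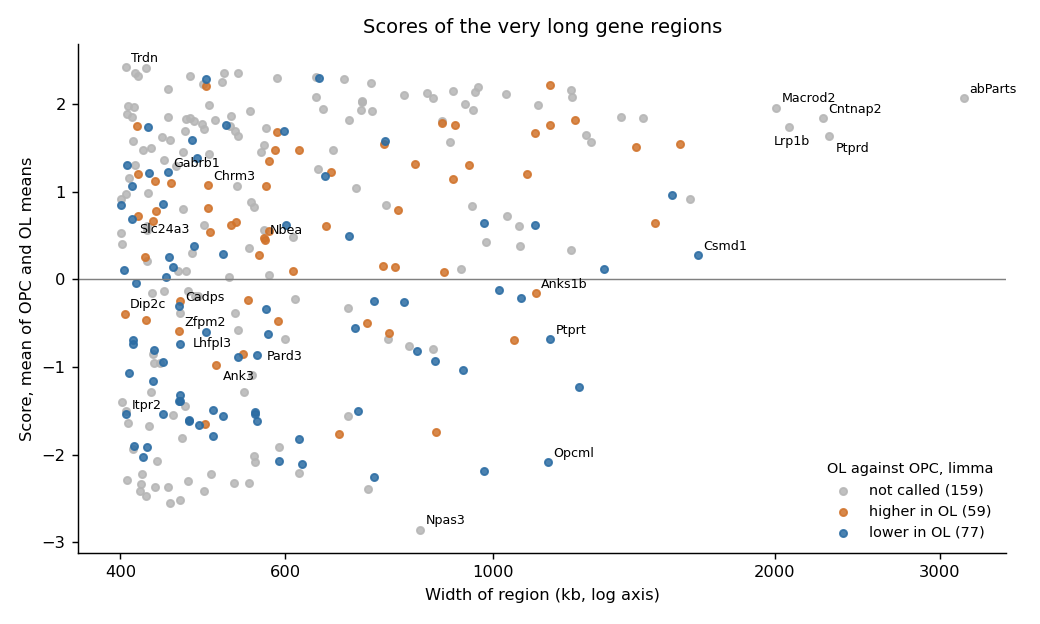
Mean score of the OPC and OL means (y axis, score units) of the 295 very long regions against width (x axis, kb, log axis), coloured by the limma call of OL against OPC: 159 not called (grey), 59 higher in OL (orange) and 77 lower (blue). The widest regions lie above 0, whereas regions near 400 kb run from below −2 to above 2.

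The 6 highest scores belonged to genes best known from muscle, testis, skin, neurons and matrix. Trdn (triadin, which anchors the calcium release complex of muscle, chr10:33073482-33478709) scored 2.38, 2.42 and 2.41 in OPC and 2.25, 2.57 and 2.50 in OL. Klhl1, an actin-binding protein of neurons, scored 2.38, 2.38 and 2.36 in OPC and 2.28, 2.56 and 2.53 in OL. Stpg2, a sperm-tail repeat protein, scored 2.36, 2.40 and 2.38 in OPC and 2.17, 2.42 and 2.40 in OL. Each of these stood over 2 in all 6 libraries, and OPC and OL overlapped. Trhde, which degrades thyrotropin-releasing hormone, scored 2.34, 2.40 and 2.37 in OPC and 2.27, 2.37 and 2.34 in OL. Skint5, of a family that selects T cells of the skin, scored 2.42, 2.50 and 2.48 in OPC and 2.08, 2.32 and 2.29 in OL. Spock3, a secreted proteoglycan (testican), scored 2.28, 2.27 and 2.32 in OPC and 2.13, 2.50 and 2.43 in OL. Only Skint5 of these 6 had its OPC libraries all above its OL libraries.

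The 6 lowest members had scores under −2. Npas3 (chr12:53238676-54074175, 835.5 kb), a transcription factor of the developing brain, scored −2.89, −2.98 and −2.86 in OPC and −2.66, −2.92 and −2.81 in OL and was the lowest member in both conditions. Agap1, an Arf GTPase activator, scored −2.63, −2.77 and −2.65 in OPC and −2.25, −2.49 and −2.50 in OL. Akap6, an anchor for protein kinase A, scored −2.50, −2.62 and −2.49 in OPC and −2.43, −2.50 and −2.55 in OL. All of their libraries lay under −2, as did those of the next 3. The phosphatase subunit gene Ppp2r2b scored −2.44, −2.45 and −2.35 in OPC and −2.50, −2.54 and −2.57 in OL. The kinase gene Tnik scored −2.41, −2.44 and −2.38 in OPC and −2.29, −2.52 and −2.44 in OL. The wide row under the name Mir5098 (chr2:71404475-71895905) scored −2.46, −2.48 and −2.42 in OPC and −2.26, −2.40 and −2.44 in OL. It also contains other gene rows, among them Dlx1as and Dlx2, as found after the values were seen.

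The second question was which very long regions differed between OL and OPC. In the limma fit 59 of the 295 (20.0%) were higher and 77 (26.1%) lower in OL, with 159 called in neither direction, against 23.0% higher and 10.9% lower over all regions. Of the members' calls 43.4% were therefore higher, against 67.9% over all regions. After all libraries had been given an equal mean and SD, the split was 71 higher and 86 lower for members (45.2% higher) and 50.5% higher over all regions. A test of each region by itself, with no spread shared across regions, turned the members' split to 33 higher and 28 lower (54.1% higher), against 61.2% higher over all regions. The members' median difference was 0.0067 and that of all regions 0.097, and with equal mean and SD they were −0.0089 and 0.016. In 208 members (70.5%) the OPC scores were all above or all below the OL scores, against 48.9% of all regions. The share was 67.7% in autosomal regions of 200 to 400 kb. The median absolute difference was 0.18 in members, 0.19 in regions of 200 to 400 kb and 0.20 over all regions. Regions of 200 to 400 kb had 123 of 610 higher and 137 lower, a split close to that of the members. By width, 31 of 186 rows of 400 to 600 kb were higher and 51 lower. From 600 to 1000 kb 18 of 73 were higher and 17 lower, and from 1000 kb 10 of 39 and 10. The excess of lower calls thus lay in the class of 400 to 600 kb.

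Split by level, low-scoring members were mostly lower in OL and high-scoring members mostly higher, each among those called. Members and shorter regions are given side by side, with no test between them. Of the 64 members with a mean score under −1, 3 were higher and 28 lower in OL, with a median difference of −0.15. Of the 12764 shorter autosomal regions at that level, 3293 were higher and 855 lower, with a median difference of 0.15. With equal mean and SD the counts were 2 and 36 for these members and 1737 and 1714 for the shorter regions. Of the 152 members at 0.5 or over, 36 were higher and 20 lower in OL, against 574 and 738 of 4257 shorter regions. With equal mean and SD these became 50 and 17 against 667 and 600. In the middle class 20 of 79 members were higher and 29 lower. Without OL library 18, which stood above the other OL libraries in members below 0, the low class had 3 higher and 29 lower.

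The 59 higher members rose by a median of 0.40, from 0.18 to 1.11, and 39 of them were above 0 in all 6 libraries. The 77 lower members had a median difference of −0.38, from −1.20 to −0.21, and 44 of them were below 0 in all 6. In every one of these 136 members the 3 OPC and the 3 OL libraries did not overlap. The call and the overlap are read from the same 6 scores, so this is no separate support. A difference over 0.5 was called in 24 members upward and 24 downward, together 48 of 295, against 8.22% of all regions. Of the 610 autosomal regions of 200 to 400 kb, 21 had such a call upward and 40 downward.

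Zfpm2, a cofactor of GATA factors in heart and gonad (chr15:40645041-41106592), scored −1.16, −1.17 and −1.12 in OPC and 0.055, −0.074 and −0.09 in OL. It rose from clearly below 0 to about 0, with no overlap (difference 1.11, limma SE 0.072, adjusted p = 8.83e-05). Lhfpl3, a tetraspan membrane protein used as a marker of OPCs, scored −1.36, −1.35 and −1.33 in OPC and −0.32, −0.38 and −0.39 in OL. It stayed below 0 and its OL libraries all lay above its OPC libraries (difference 0.98, limma SE 0.068, adjusted p = 9.20e-05). Dip2c, of the disco-interacting family, scored −0.86, −0.86 and −0.84 in OPC and 0.15, 0.0076 and 0.041 in OL. Its 3 OL values lay just above 0, and it rose by 0.92 (limma adjusted p = 1.15e-04).

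Ank3, which encodes ankyrin-G of the axon initial segment and the node of Ranvier, scored −1.45, −1.43 and −1.43 in OPC and −0.49, −0.59 and −0.50 in OL. Like Lhfpl3 it rose without reaching 0 (difference 0.91, limma SE 0.071, adjusted p = 1.33e-04). Chrm3, the M3 muscarinic acetylcholine receptor, scored 0.62, 0.63 and 0.63 in OPC and 1.47, 1.55 and 1.52 in OL. It was above 0 in OPC already and moved further up (difference 0.89, limma SE 0.063, adjusted p = 9.33e-05). Nbea, a membrane traffic protein of the synapse, scored 0.045, 0.061 and 0.033 in OPC and 0.87, 0.85 and 0.86 in OL, so that OPC lay next to 0 and OL clearly above (difference 0.81, limma SE 0.061, adjusted p = 1.15e-04).

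Slc24a3, a sodium-calcium-potassium exchanger (chr2:145232610-145643939), had the largest fall, with 1.29, 1.28 and 1.30 in OPC and 0.16, 0.0011 and 0.13 in OL. All OPC libraries were over 1 and all OL libraries near 0 (difference −1.20, limma SE 0.069, adjusted p = 5.94e-05). Ptprt, a receptor tyrosine phosphatase, scored −0.20, −0.23 and −0.17 in OPC and −1.12, −1.21 and −1.18 in OL. It fell from slightly below 0 to below −1 (difference −0.97, limma SE 0.069, adjusted p = 9.20e-05). Cadps, which primes dense-core vesicles for release, scored 0.11, 0.055 and 0.11 in OPC and −0.58, −0.77 and −0.75 in OL, and its OPC libraries lay just above 0 (difference −0.79, limma SE 0.076, adjusted p = 3.03e-04).

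Itpr2, a calcium channel of the endoplasmic reticulum opened by inositol trisphosphate, scored −1.09, −1.14 and −1.19 in OPC and −1.93, −1.93 and −1.93 in OL. It lay below 0 in all libraries, lower in OL without overlap (difference −0.79, limma SE 0.075, adjusted p = 3.00e-04). Gabrb1, the beta-1 subunit of the GABA-A receptor, scored 1.62, 1.60 and 1.62 in OPC and 0.83, 0.82 and 0.83 in OL. It stayed above 0 in OL at a lower level (difference −0.79, limma SE 0.062, adjusted p = 1.36e-04). Pard3, a scaffold of cell polarity, scored −0.45, −0.50 and −0.46 in OPC and −1.16, −1.32 and −1.29 in OL and fell further below 0 (difference −0.78, limma SE 0.075, adjusted p = 3.08e-04).

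**Figure D3:**
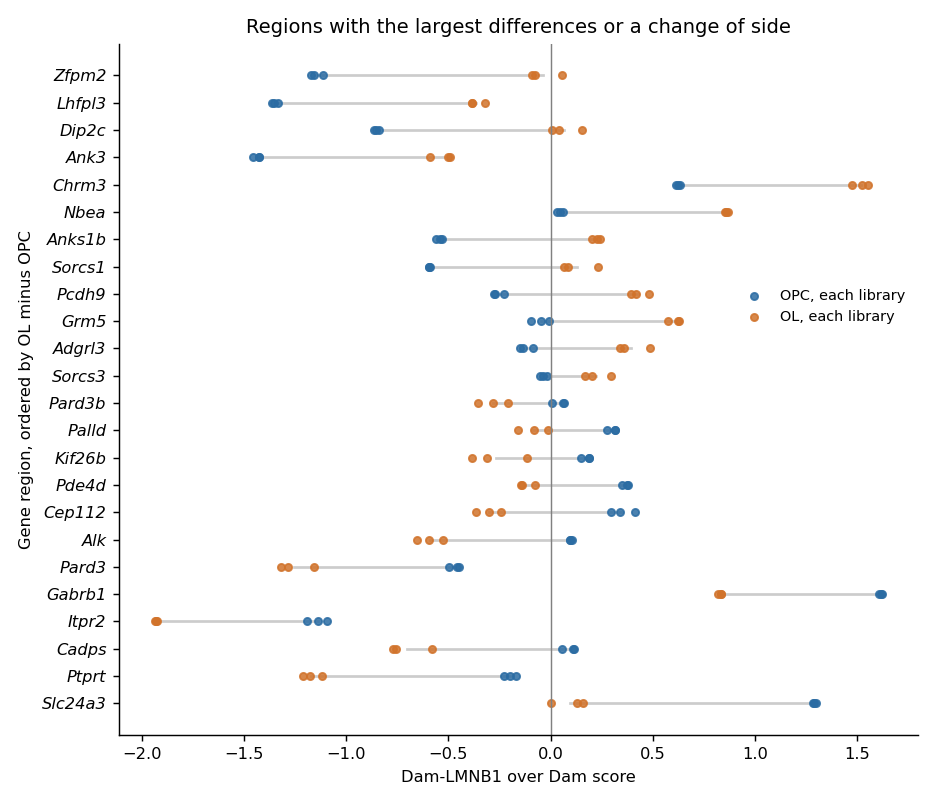
Scores (x axis, score units) of each OPC library (blue) and OL library (orange) in the 24 very long regions with the 6 largest rises, the 6 largest falls or scores on opposite sides of 0 in the conditions, ordered by OL minus OPC (y axis); grey lines join the means. Zfpm2 at the top rose by 1.11 and Slc24a3 at the bottom has a difference of −1.20. Blue and orange points overlap in none of the rows, as the choice of these regions required.

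Scores lay on one side of 0 in all 3 OPC libraries and on the other in all 3 OL libraries in 14 members (4.75%), all called by limma, against 1.22% of all regions. In a test of each region by itself 6 of the 14 were called, and Adgrl3, Alk, Cadps, Kif26b, Palld, Pard3b, Sorcs1 and Sorcs3 were not. The side describes the 3 scores alone, since not every condition mean was called against 0. Adjusted p in OPC (limma, against 0) was 0.464 for Sorcs3, 0.402 for Pard3b and 0.0685 for Alk, for example. From below to above 0 went 7 members. Besides Dip2c they included Anks1b, a postsynaptic scaffold that scored −0.53, −0.56 and −0.54 in OPC and 0.24, 0.23 and 0.20 in OL. Sorcs1, a sorting receptor, scored −0.60, −0.59 and −0.59 in OPC and 0.23, 0.085 and 0.063 in OL. Both began clearly below 0 in OPC. The related receptor Sorcs3 scored −0.05, −0.039 and −0.02 in OPC and 0.30, 0.17 and 0.20 in OL, with OPC close to 0. Its call (difference 0.26, limma SE 0.067, adjusted p = 0.017) was lost without OPC library 8 (adjusted p = 0.0517, limma) or OPC library 9 (0.0567).

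Pcdh9, a protocadherin, scored −0.23, −0.28 and −0.27 in OPC and 0.48, 0.42 and 0.39 in OL. Adgrl3, the adhesion receptor latrophilin 3, scored −0.086, −0.15 and −0.14 in OPC and 0.49, 0.36 and 0.34 in OL. Grm5, the metabotropic glutamate receptor 5, scored −0.045, −0.094 and −0.0065 in OPC and 0.57, 0.63 and 0.62 in OL. The OPC values of all 3 lay within 0.3 below 0, and the OL values above 0 without overlap (differences 0.69, 0.52 and 0.66, limma adjusted p = 3.00e-04, 0.00116 and 3.37e-04).

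From above to below 0 went 7 members, Cadps among them. Alk, a receptor tyrosine kinase, scored 0.11, 0.095 and 0.095 in OPC and −0.53, −0.65 and −0.59 in OL. Cep112, a centrosomal protein, scored 0.41, 0.30 and 0.34 in OPC and −0.24, −0.36 and −0.30 in OL. Their falls of over 0.6 were the next in size after Cadps. Pde4d, a phosphodiesterase that degrades cyclic AMP, scored 0.38, 0.37 and 0.35 in OPC and −0.079, −0.14 and −0.15 in OL. Kif26b, of the kinesin family, scored 0.19, 0.15 and 0.19 in OPC and −0.12, −0.38 and −0.31 in OL. The actin-associated protein palladin (Palld) scored 0.31, 0.27 and 0.32 in OPC and −0.014, −0.16 and −0.08 in OL. In these 3 regions the OL values lay within 0.4 of 0. Pard3b, a relative of Pard3, scored 0.065, 0.0055 and 0.06 in OPC and −0.21, −0.35 and −0.28 in OL, with 1 OPC library at 0.0055. The limma adjusted p of these 7 lay between 3.03e-04 (Cadps) and 0.00797 (Pard3b).

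By role, 228 members fell in 15 lists of genes and 67 in none. The lists count the members that limma called, to be read first against the shares of all 295 members. These were 58.6% above and 36.3% below 0 in OPC, and 20.0% higher and 26.1% lower in OL. Over all regions the shares were 25.5% above and 71.4% below 0 in OPC, and 23.0% higher and 10.9% lower in OL. In 12 of the 15 lists the median OPC score of the long genes was above that of the list's shorter genes. The lists were chosen with earlier results of these data known, so this count is a description. The 3 lists that went the other way were cadherins, neurotransmitter receptors and synaptic scaffold proteins.

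**Figure D4:**
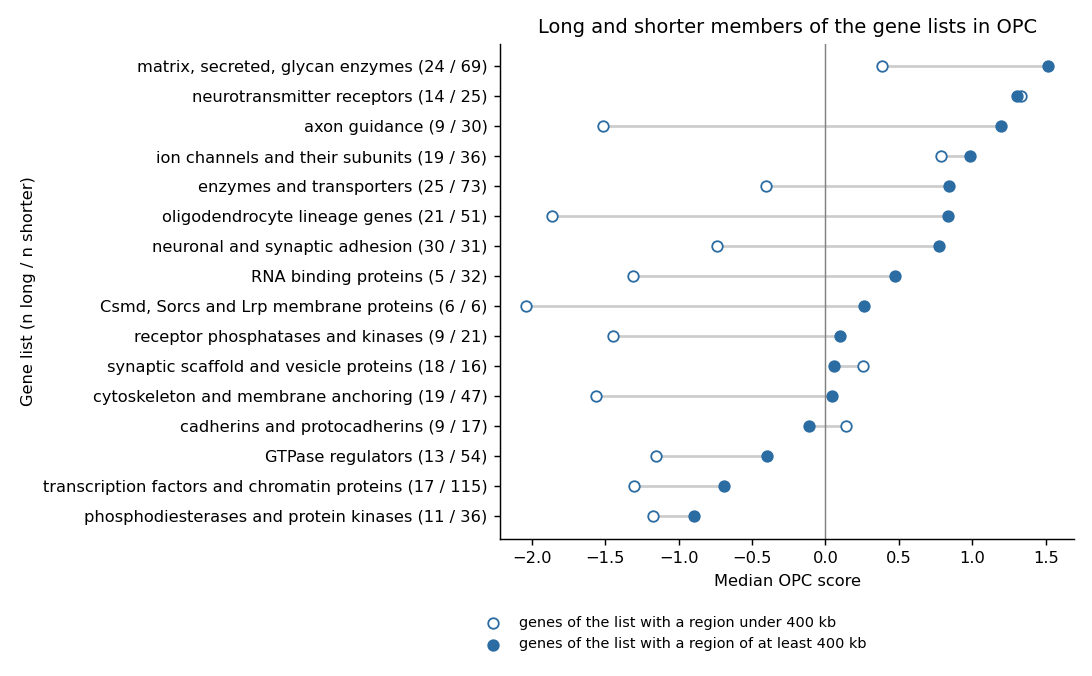
Median OPC score (x axis, score units) of the genes with a region of at least 400 kb (filled) and under 400 kb (open) in the 15 role lists and the oligodendrocyte lineage list (y axis, numbers of long and shorter genes in brackets). Filled points lie right of open ones in 12 of the 15 role lists, by the most in axon guidance genes, at 1.2 against −1.51.

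Matrix and secreted proteins had the highest median OPC score of the 15 lists. Of 24 long members 18 were above 0 and 6 below in OPC (median 1.52, against 0.39 for 69 shorter genes), and 2 were higher and 5 lower in OL. They ran from Spock3, at 2.29 ± 0.027 in OPC and 2.36 ± 0.19 in OL (SD, n = 3), to Thsd4, a secreted thrombospondin-repeat protein, at −1.90 ± 0.042 in OPC and −2.13 ± 0.088 in OL. Enzymes and transporters, with the common fragile site genes, had 20 of 25 above 0 and 4 below (median 0.84 against −0.41). Of the 25, 8 were higher and 5 lower in OL. The highest was Ccser1, which spans a fragile site, at 2.0 ± 0.019 in OPC and 2.16 ± 0.083 in OL, and the lowest Cdkal1, which modifies transfer RNA, at −1.32 ± 0.041 in OPC and −1.26 ± 0.037 in OL.

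Receptors and channels were mostly above 0 as well. Of 14 neurotransmitter receptors 11 were above and 2 below in OPC (median 1.31, against 1.33 for 25 shorter ones), with 3 higher and 3 lower in OL. Grm8, a metabotropic glutamate receptor, was the highest at 2.03 ± 0.026 in OPC and 2.10 ± 0.053 in OL. Grik4, a kainate receptor subunit, was the lowest at −2.44 ± 0.025 in OPC and −2.30 ± 0.10 in OL. Of 19 ion channel genes 13 were above and 6 below (median 0.98 against 0.79), with 5 higher and 7 lower in OL. The potassium channel Kcnh7 stood at 2.10 ± 0.011 in OPC and 2.32 ± 0.096 in OL, and Cacna1c, the pore of an L-type calcium channel, at −1.65 ± 0.0046 in OPC and −2.0 ± 0.12 in OL.

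Adhesion and guidance genes were split. Of 30 neuronal and synaptic adhesion genes 18 were above and 10 below 0 in OPC (median 0.78 against −0.74 for 31 shorter ones), and 6 were higher and 13 lower in OL. Cntnap5c, a neurexin-like protein, was at 2.42 ± 0.0048 in OPC and 2.17 ± 0.11 in OL and the IgLON protein neurotrimin (Ntm) at −1.95 ± 0.050 in OPC and −2.41 ± 0.13 in OL. Of 9 axon guidance genes 5 were above and 4 below. The ephrin receptor Epha6 was at 2.10 ± 0.014 in OPC and 2.28 ± 0.080 in OL and the semaphorin receptor Plxna4 at −1.45 ± 0.062 in OPC and −1.63 ± 0.078 in OL. Of 9 cadherins 4 were above and 4 below (median −0.11 against 0.14), with 3 higher in OL. Cdh12, a classical cadherin of neurons, was at 2.16 ± 0.0075 in OPC and 2.30 ± 0.11 in OL and Cdh23, of the hair cell tip link, at −1.57 ± 0.0066 in OPC and −1.43 ± 0.092 in OL. The 6 Csmd, Sorcs and Lrp genes had 3 above and 2 below 0 in OPC and 4 and 1 in OL, between Csmd3 at 1.61 ± 0.016 in OPC and 2.01 ± 0.10 in OL and Csmd2 at −1.97 ± 0.028 in OPC and −1.86 ± 0.14 in OL.

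Scaffold, receptor phosphatase and cytoskeleton genes had medians near 0 in OPC. Synaptic scaffold and vesicle genes had 7 of 18 above and 7 below in OPC, and 11 above and 7 below in OL, with the syntrophin Sntg1 at 1.92 ± 0.025 in OPC and 1.95 ± 0.15 in OL and the exocyst subunit Exoc4 at −2.39 ± 0.040 in OPC and −2.40 ± 0.089 in OL. Receptor phosphatases, receptor kinases and neuregulins had 4 of 9 above and 3 below in OPC, and 4 and 5 in OL. The neuregulin Nrg3 was at 1.96 ± 0.021 in OPC and 2.01 ± 0.038 in OL and the phosphatase Ptprg at −1.63 ± 0.036 in OPC and −1.50 ± 0.063 in OL. Cytoskeleton genes had 9 of 19 above and 9 below (median 0.04 against −1.56 for 47 shorter ones), with 5 higher and 9 lower in OL. The liprin Ppfia2 was at 2.23 ± 0.0086 in OPC and 2.41 ± 0.12 in OL and Dst, a linker between filament systems, at −1.98 ± 0.024 in OPC and −1.88 ± 0.14 in OL.

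Genes of intracellular signalling and of transcription had the lowest medians. Of 11 phosphodiesterases and kinases 3 were above and 8 below (median −0.90 against −1.18), from the diacylglycerol kinase Dgkb at 1.41 ± 0.0052 in OPC and 1.66 ± 0.087 in OL to Tnik. Of 13 GTPase regulators 5 were above and 8 below (median −0.40 against −1.15), with 3 lower in OL, and Tbc1d5, an activator of Rab GTPases, was the highest at 1.26 ± 0.0038 in OPC and 1.34 ± 0.025 in OL. Of 17 transcription and chromatin genes 6 were above and 10 below (median −0.69 against −1.30 for 115 shorter ones). Zfp804b, a zinc finger gene, was at 2.25 ± 0.0041 in OPC and 2.34 ± 0.064 in OL, at the other end from Npas3. The 5 RNA-binding proteins stood higher (median 0.47 against −1.31), with 3 above and 2 below, from Khdrbs2 at 1.98 ± 0.0078 in OPC and 1.99 ± 0.090 in OL to Rbfox3, the splicing factor known as NeuN, at −1.24 ± 0.027 in OPC and −1.33 ± 0.10 in OL.

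A separate list held genes of the oligodendrocyte lineage, meaning genes known for OPCs or oligodendrocytes whatever their role. Of its 21 very long members 11 were above and 10 below 0 in OPC and 11 and 9 in OL, with a median OPC score of 0.83 against −1.86 for its 51 shorter genes. In OL 7 were higher and 5 lower than in OPC, and 15 of the 21 did not overlap, against 70.5% of the 295 members and 48.9% of all regions. Ank3, Lhfpl3 and Itpr2, given above for their size of difference, are among these calls. At the low end Nfia, a factor that starts gliogenesis, scored −2.32, −2.34 and −2.29 in OPC and −2.24, −2.40 and −2.32 in OL, so it stayed low in both conditions with overlap. Tnr, the matrix protein tenascin-R made by oligodendrocyte lineage cells, scored −1.62, −1.66 and −1.68 in OPC and −2.01, −2.24 and −2.21 in OL. The adhesion gene Opcml scored −1.87, −1.87 and −1.8 in OPC and −2.18, −2.41 and −2.37 in OL. Dscam, another adhesion gene, scored −1.84, −1.91 and −1.91 in OPC and −2.13, −2.31 and −2.34 in OL. These last 3 fell further below 0 without overlap (differences −0.50, −0.47 and −0.37, limma adjusted p = 0.00398, 0.00519 and 0.012).

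Kirrel3, an adhesion protein, scored −1.50, −1.52 and −1.52 in OPC and −1.69, −1.75 and −1.75 in OL. Its difference was small (−0.22, limma SE 0.074, adjusted p = 0.0473). With any 1 library other than OL 18 left out it stayed between −0.22 and −0.21 but missed the threshold, with limma adjusted p from 0.105 without OPC library 10 to 0.12 without OL library 20. Sema5a, a semaphorin that oligodendrocytes use to repel axons, scored −0.50, −0.52 and −0.52 in OPC and 0.11, −0.045 and −0.0057 in OL and rose to about 0 (difference 0.53, limma SE 0.070, adjusted p = 0.00107). Elmo1, which activates Rac with Dock proteins, scored −0.38, −0.42 and −0.39 in OPC and −0.28, −0.42 and −0.39 in OL. The values of Elmo1 overlapped.

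In the upper range Pcdh15, a protocadherin used as a marker of OPCs, scored 1.02, 1.03 and 1.0 in OPC and 1.59, 1.66 and 1.62 in OL. It rose without overlap (difference 0.61, limma SE 0.064, adjusted p = 4.47e-04). Erbb4, the neuregulin receptor, scored 1.04, 1.01 and 0.99 in OPC and 1.39, 1.45 and 1.36 in OL. Brinp3 scored 1.61, 1.55 and 1.55 in OPC and 1.81, 2.03 and 1.94 in OL. These 2 rose as well (differences 0.39 and 0.35, limma adjusted p = 0.00278 and 0.00821). Ctnna3, an alpha-catenin, scored 1.42, 1.42 and 1.43 in OPC and 1.62, 1.69 and 1.66 in OL. Its difference was 0.24, limma SE 0.064, adjusted p = 0.0208. With any 1 library other than OL 18 left out it stayed between 0.22 and 0.24 but missed the threshold, with limma adjusted p from 0.0568 without OL library 19 to 0.0695 without OPC library 9.

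The other members of this list above 0 were not called for a difference in the fit of all 6 libraries, and Ptprd has been given among the widest. The adhesion gene Mdga2 scored 0.83, 0.81 and 0.86 in OPC and 0.88, 0.85 and 0.83 in OL. The secreted protein Luzp2 scored 1.30, 1.32 and 1.29 in OPC and 1.39, 1.45 and 1.43 in OL. Nrg3, a ligand of Erbb4, scored 1.93, 1.96 and 1.97 in OPC and 1.98, 2.05 and 2.0 in OL. Only Mdga2 of these 3 overlapped between OPC and OL. The laminin subunit Lama2 scored 2.02, 2.02 and 2.06 in OPC and 2.04, 2.20 and 2.17 in OL. Nkain2, which binds the sodium pump, scored 2.05, 2.11 and 2.09 in OPC and 2.08, 2.33 and 2.26 in OL. Its difference of 0.14 (limma adjusted p = 0.215) was 0.21 without OL library 18 (limma adjusted p = 0.0401). The integrin ligand Edil3 scored 2.19, 2.17 and 2.21 in OPC and 2.21, 2.39 and 2.33 in OL. All of their values lay above 0.8, and OPC and OL also overlapped in Lama2 and Nkain2.

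The surroundings of the very long regions were read from the neighbouring rows. Rows that lie wholly inside a member share its reads, and of 148 such rows in 70 members 134 (90.5%) had a mean score on the same side of 0 as the member. Without the wide row named Bc1, which alone contains 47, the number was 87 of 101 (86.1%). Each row is counted once, also the 10 that lie in a pair of overlapping members, Z12226 and TCRB. Members above 0 held more rows of the other sign, with 45 of 57 nested rows on their side, than members below 0, with 89 of 91. Chosen after the values were seen, examples are Trim32, a ubiquitin ligase at −1.10 inside Astn2 at 0.73, and Lrrtm1, a synaptic adhesion gene at −1.35 inside Ctnna2 at 0.62. Mplkip stood at −0.18 inside Sugct at 2.13. In Tenm4, at −0.55, the nested rows of Mir708 and Mir6394 stood at 0.85 and 0.67.

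The nearest rows on either side did not always share the member's sign. Of 181 members above 0 with a row on each side, 65 had both neighbours above 0, 85 had 1 and 31 had neither. Of 113 members below 0, 90 had both neighbours below 0, 16 had 1 above and 7 had both above. The median score of the neighbours was 0.38 beside the members above 0, whose own median was 1.45, and −1.55 beside the members below 0, with −1.32. Neighbours were farther away from members above 0, at a median of 205 kb, than from those below 0, at 98.5 kb.

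Gene density differed along with the score. Members above 0 had a median of 9 other regions within 1 Mb on either side and members below 0 had 15. Across the 295 members Spearman's rho was −0.369 between score and that number and −0.248 between width and that number, as a description over regions of the same libraries. At 0 to 10 neighbouring regions 76.6% of 141 members and 50.6% of 930 autosomal regions of 50 to 200 kb had a mean score above 0. With 11 to 20 neighbours the shares were 50.5% and 27.0%, and with 21 to 40 they were 41.5% and 11.9%. Over 40 neighbours left 8 members, of which 4 were above 0, against 7.67% of 743 regions of 50 to 200 kb. Z12226 and TCRB, which overlap each other, are both among these 4. The part of gene density in the scores of long regions was not tested further.

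**Figure D5:**
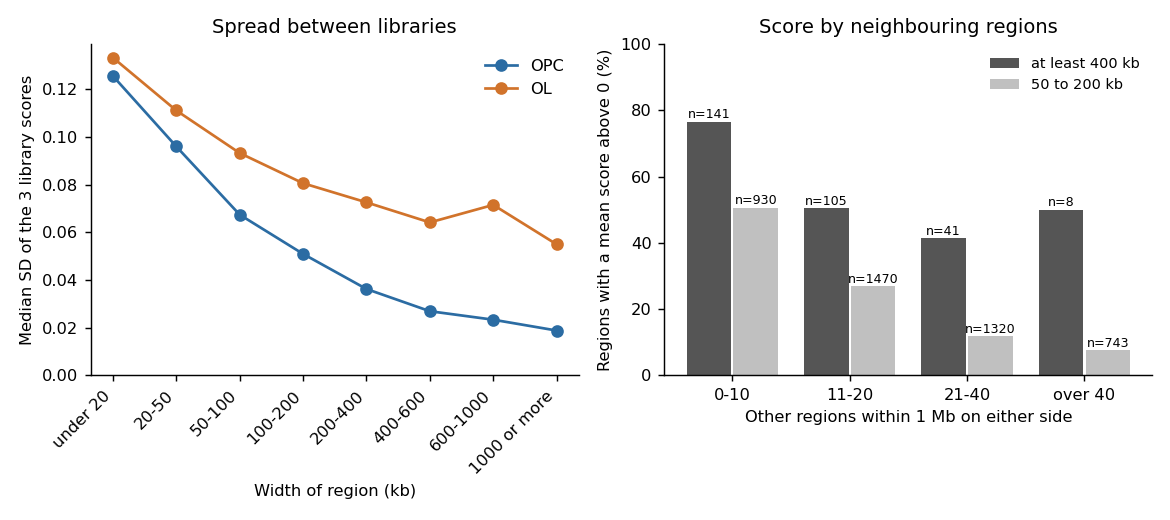
Left, median SD of the 3 library scores (y axis, score units) against width class (x axis, kb) in OPC (blue) and OL (orange), falling from 0.13 to 0.019 in OPC. Right, share of regions with a mean score above 0 (y axis, percent) by the number of other regions within 1 Mb on either side (x axis) for regions of at least 400 kb (dark) and of 50 to 200 kb (light), with the dark bar higher in all 4 classes. The last class holds 8 members, among them the overlapping Z12226 and TCRB.

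Chromosome by chromosome, the median OPC score of the very long regions lay above that of the shorter ones on 19 of 19 autosomes. Chromosome 10 had the highest median, 1.42 over 19 members, with 14 called above 0 by limma, and its shorter regions had −1.48. Chromosome 19 had the lowest, −0.32 over 8 members, with 3 above, and its shorter regions had −1.87. Chromosomes 1 and 14 had the largest share of very long regions, 2.38% each, with medians of 1.12 and 0.09, and chromosome 7 the smallest, 0.50%, with a median of 1.15.

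Of the 295 members, 52 (17.6%) have in the authors' deposited table an adjusted p under 0.05, 31 of them higher and 21 lower in OL, against 3.14% of all regions. The members' median absolute difference was 0.18, against 0.20 over all regions, and scores of wide regions vary less between libraries, as given above. Differences over 0.5 were called by limma in 24 members upward and 24 downward, against 8.22% of all regions. What raises the members' share in the authors' calls was not tested. The authors' share among regions of 200 to 400 kb was not counted. Of these 52, 49 were called by limma as well. The limma counts of 59 higher and 77 lower and the counts of 31 and 21 in the authors' deposited table differ in which direction is more frequent. In the test of each region by itself the counts were 33 higher and 28 lower.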

How the data were processed

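DamID-seq was analysed in 6 Dam-LMNB1 libraries, 3 per condition, with 5 Dam libraries entering only as denominators. The submitters' processing notes name BWA 0.7.17, cutadapt 1.9.1 and, as the build, mm10. The authors deposited 1 score per gene region and library, each against a pool of the condition's Dam libraries per the file headers. The step from reads to scores is not given in the sources here. The authors also deposited a p-value and an adjusted p-value per region, from which only the counts credited to them are taken.

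Width is end minus start in the deposited table. limma 3.58.1 (R 4.3.3) was fitted to the deposited scores of all 21534 regions without filter, pseudocount or further scaling, with 1 mean per condition, a variance trend on score level and 9.42 total degrees of freedom (median). Tests were two-sided, of each mean against 0 and of OL against OPC, at an adjusted p of 0.05 (Benjamini-Hochberg over all regions). The script was tested on simulated scores with independent noise and no shared Dam denominator, over regions of all widths. There limma called 41 of 100 differences of 0.5 and 88 of 100 differences of 1, with 9 false calls among 21334 regions. A region not called can therefore still differ. Replicates may share a culture, so the p-values speak of the spread of these libraries alone, possibly a technical one. Sequencing depth per library is not in the table.

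The members and the gene lists were chosen with earlier results of these data known. Named regions are the 6 widest, the 6 highest and 6 lowest, the 6 largest called rises and falls without overlap, those nearest to the limit, the highest and lowest of each role list, all that change side of 0 and all of the oligodendrocyte lineage list. Alternatives were 2 scalings, 4 other tests, each library left out, width limits of 300 and 600 kb, and members restricted to protein-coding genes or to those overlapping no other. Promoter windows came from RefSeq tables, GRCm38.p6. Whole-genome sequence was not used here.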

Additional observations from a re-analysis of the deposited data

Results flagged for a closer look

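In 14 very long regions the 3 OPC libraries lay on one side of 0 and the 3 OL libraries on the other, and limma called the difference between the conditions in each. The differences of OL minus OPC, in score units, were 0.92 for Dip2c, 0.77 for Anks1b, 0.72 for Sorcs1, 0.69 for Pcdh9, 0.66 for Grm5, 0.52 for Adgrl3 and 0.26 for Sorcs3, which went from below to above 0. They were −0.79 for Cadps, −0.69 for Alk, −0.65 for Cep112, −0.49 for Pde4d, −0.44 for Kif26b, −0.39 for Palld and −0.33 for Pard3b, which went from above to below 0. Limma's adjusted p was lowest for Dip2c (1.15e-04) and highest for Sorcs3 (0.017). In a test of each region by itself 8 of the 14 calls were lost, those of Adgrl3, Alk, Cadps, Kif26b, Palld, Pard3b, Sorcs1 and Sorcs3. Several of these scores lie close to 0 in 1 of the conditions. The OPC means of Sorcs3, Alk and Pard3b, for example, were not called against 0 (limma adjusted p = 0.464, 0.0685 and 0.402).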

How the results depend on the processing

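No paired analysis was possible because the labels number the OPC libraries 8 to 10 and the OL libraries 18 to 20, so the conditions share no replicate number. The members' median OL minus OPC difference, 0.0067, turned to −0.0089 with equal mean and SD and to −0.011 under quantile normalization, both within 1 SD of the libraries' medians. The other summary values (the median OPC and OL scores and the share above 0) kept their sign under both scalings, the limma variants and each library left out. Counts of called members stayed within 1.5 times and values within 1 SD, with these exceptions. Quantile normalization gave a median OPC score of 0.563. With a separate test per region (Welch) 33 members were higher and 28 lower, which included 57 of the 136 limma calls. A limma variance trend on log2 width, chosen after seeing the data, called 96 higher and 100 lower, with all 136 among them. With libraries left out in turn the median OL score ranged from 0.520 (without OL library 18) to 0.584, the members higher in OL from 40 to 70 and those lower from 58 to 83, and 100 to 134 of the 136 calls remained. The cause was not tested. A limit of 300 kb (492 regions) gave 273 above and 195 below 0 in OPC, 269 and 198 in OL, 99 higher and 123 lower, medians of 0.43 and 0.39 and 57.6% above 0. A limit of 600 kb (109 regions) gave 74 and 29, 76 and 31, 28 and 26, medians of 0.98 and 0.97 and 70.3%. The counts changed with the number of regions, and at 600 kb, unlike 300 and 400 kb, more were higher in OL than lower.

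Differences were followed in 50 named regions, of which only some were called in the main fit. Among these 50, 15 lost a call in at least 1 setting, all 15 under the Welch test. Another 5 gained a call, Nkain2 and Edil3 under quantile normalization (adjusted p = 0.0345 and 0.0457), Nkain2 without OL library 18 (0.0401), and Nkain2, Luzp2, Lrp1b and abParts with the trend on log2 width (0.0082 to 0.0368). Ctnna3 and Kirrel3 also missed the threshold, at differences nearly as large, without any library but OL 18, and Sorcs3 without OPC 8 or 9. The sign changed only in uncalled differences near 0. Elmo1 was −0.023 at the same mean and SD and −0.0034 under quantile normalization, and Mdga2 −0.011 under the latter. With libraries left out Elmo1 ranged from −0.0077 to 0.061, Nfia from −0.044 to 0.034 and Macrod2 from −0.011 to 0.033. The OPC and OL levels of the 38 regions named for their level kept side and call in all 836 checks. Depth per region is unknown, so no limit from counting could be given.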
